A study of Mus musculus with 6 samples.

Results

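Foxp2 6530403H02Rik nuclei are a small set of GABAergic nuclei from the septal area of the mouse brain. They were chosen by their raw counts of unique molecular identifiers (UMIs, 1 per captured RNA molecule). A barcode was kept with at least 500 detected genes, no more than 5% of mitochondrial UMIs, at least 1 UMI of Gad1 and Gad2 together and none of Slc17a6. It also had to hold at least 5 UMIs of Foxp2 and at least 2 of 6530403H02Rik. This gave 1372 nuclei, out of 54605 nuclei that passed the gene and mitochondrial limits and out of 26834 GABAergic nuclei among them. The working label of the set was Foxp2 Tshz1 striatal-like neurons.

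The data came from 6 libraries of the septal area of wild type mice, sequenced as single nuclei by the Chromium Single Cell 3' v3 method, in which each droplet gives its nucleus a barcode. All 6 libraries belong to 1 group, so every comparison here is between classes of nuclei within the same libraries, with the library as the replicate. Nothing in the labels says that the libraries came from separate animals, so p-values measure the spread between libraries, which may be technical. The labels give no age or sex of the mice, number of animals or borders of the dissection.

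Libraries held 7393 to 11134 barcodes and 70183544 to 95175260 UMIs. The median member held 11435.5 UMIs, and no member barcode was shared between libraries. Barcodes are called nuclei on the word of the study's title, and mitochondrial UMIs made up 0.047 to 0.0706% of each library. Levels below are counts per 1000000 UMIs (CPM) of the summed counts of a class in a library.

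As background, the septum lies along the midline of the forebrain next to the striatum, and most neurons of its lateral part are GABAergic. The main cells of the striatum are GABAergic medium spiny neurons, divided into a direct pathway class with the dopamine receptor Drd1 and an indirect pathway class with Drd2. A further striatal type, called eccentric spiny neurons, carries Otof, Casz1, Tshz1 and Adarb2 in mice. Foxp2 and Tshz1, which encode transcription factors, also mark the intercalated cells, GABAergic clusters between the nuclei of the amygdala.

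The set made up 2.46 ± 0.555% of all filtered nuclei and 4.99 ± 0.996% of GABAergic nuclei (mean ± SD over 6 libraries). Replicates 1 to 6 gave 193, 269, 136, 380, 208 and 186 members. The highest share of filtered nuclei was 3.45% in replicate 4 (exact Clopper-Pearson 95% interval 3.12 to 3.81%), and the lowest was 1.90% in replicate 3 (1.60 to 2.25%). Of GABAergic nuclei, replicate 4 gave 6.85%, and the mean over the other libraries was 4.62%. These intervals cover counting error only, and a nucleus needs several UMIs of both genes to enter, which shallow nuclei reach less often.

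**Figure D1:**
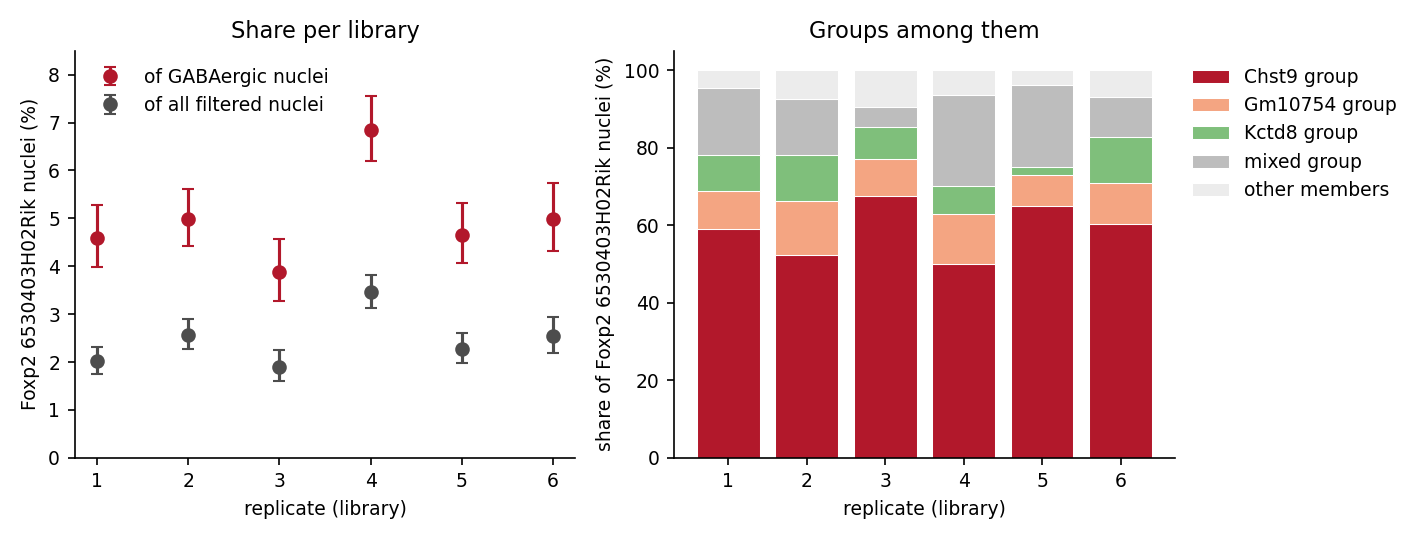
The left panel plots the share of Foxp2 6530403H02Rik nuclei (%) in each of the 6 libraries, of GABAergic nuclei in red and of all filtered nuclei in grey, with exact 95% intervals as bars. The right panel splits the members of each library into 4 groups of clusters and the remaining members (% of members); replicate 4 has the highest share on both scales, and the Chst9 group is the largest group in all 6 libraries.

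The genes of the rule and of the label were set by how the nuclei were chosen and are given as a description. The median member held 24 UMIs of Foxp2 (quartiles 15 and 38.25) and 11 UMIs of 6530403H02Rik, a long noncoding transcript (quartiles 6 and 19). At the border of the rule, 31 members had exactly 5 UMIs of Foxp2 and 23 nuclei that met the other conditions had 4. Their summed Tshz1 levels were 119 CPM inside and 148 CPM outside. For 6530403H02Rik, 88 members had exactly 2 UMIs and 172 nuclei just outside had 1, with Tshz1 at 212 CPM inside and 115 CPM outside. Of these nuclei at the border of 6530403H02Rik, 34.1% inside and 18.0% outside fell in the cluster that held most members.

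The other 4 genes of the label were high in the members in all 6 libraries. Tshz1 ranged over 252 to 382 CPM with a median of 368 in the members, against 12.9 to 18.0 with a median of 14.2 in lateral septum-like nuclei, a class of 7902 GABAergic nuclei described below. Otof, which encodes the vesicle release sensor otoferlin of inner ear hair cells, averaged 105 ± 14.7 CPM in the members and 9.22 ± 0.858 CPM in lateral septum-like nuclei (SD, n = 6 each). Chst9, a sulfotransferase that acts on carbohydrate chains, averaged 310 ± 84.5 CPM in the members and 17.9 ± 1.98 CPM in lateral septum-like nuclei. Adamts3, a secreted metalloprotease, averaged 363 ± 34.0 CPM in the members and 45.6 ± 2.08 CPM in lateral septum-like nuclei. Chst9 was the most variable of the 4 among libraries, with 195 CPM in the lowest and 382 CPM in the highest.

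Not every member carried these RNAs in view. After each nucleus was thinned to 3000 UMIs, 62.7% of members held a UMI of Tshz1, 39.5% of Chst9 and 28.8% of Otof, while the unthinned shares were 89.1, 53.1 and 58.5%. Oligodendrocytes, a cell type that should lack neuronal genes, held a UMI of Chst9 in 1.20% after thinning, with a median of 7420 UMIs before it against 11436 in the members. Otof was seen in 0 of 416 thinned oligodendrocytes, which allows a share of up to 0.721% of nuclei with a UMI at that depth, and does not limit the share that expressed the gene. Tshz1 was seen in 13.0% of thinned oligodendrocytes and 3.79% of lateral septum-like nuclei. Counting whole nuclei, 502 members held both Chst9 and Otof, 227 held Chst9 without Otof, 301 held Otof without Chst9 and 342 held neither.

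**Figure D2:**
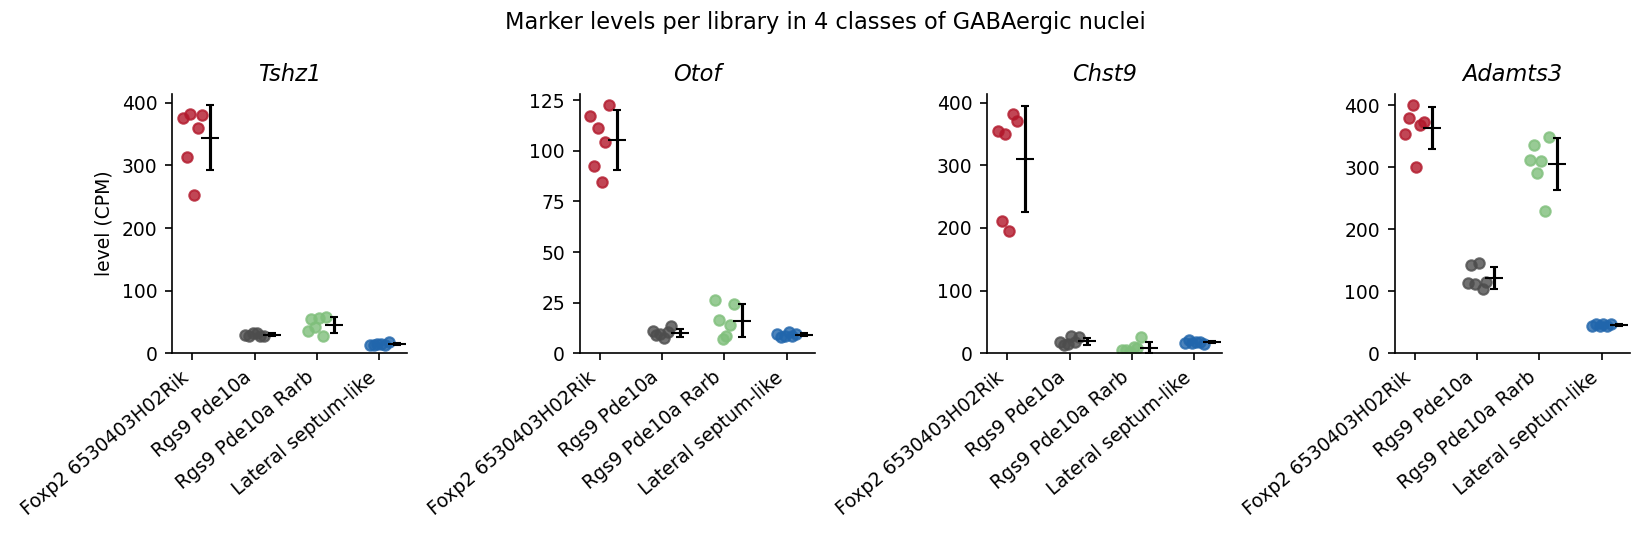
Each panel plots the level in CPM of 1 gene of the label, with 1 point for each of the 6 libraries in each of 4 classes of GABAergic nuclei and the mean ± SD beside the points. Tshz1, Otof and Chst9 in the Foxp2 6530403H02Rik nuclei lie above every library of the other classes, whereas Adamts3 overlaps with Rgs9 Pde10a Rarb nuclei.

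The members were not uniform. GABAergic nuclei were clustered without the genes of the rule, which gave 52 clusters, and the members' clusters are named here by a leading gene. These groups are descriptions of the clustering and were not tested. A Chst9 group held 784 members (57.1%), a Gm10754 group 155 (11.3%) and a Kctd8 group 114 (8.31%). These were the 3 clusters with most members among those not made up mostly of predicted doublets. A further 232 members (16.9%) lay in 7 clusters made up mostly of predicted doublets, called the mixed group. The remaining 87 were scattered over 24 other clusters.

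The Chst9 group was led by Chst9, Sphkap, B020031H02Rik, Htr1f, Vwc2l and Erbb4. Sphkap encodes an anchor for protein kinase A, Htr1f a serotonin receptor, Vwc2l a secreted protein and Erbb4 the neuregulin receptor. Vwc2l averaged 945 CPM in this group, 506 CPM in the Gm10754 group and 20.6 CPM in the Kctd8 group. The members made up 84.3% of their cluster of 930 nuclei. The rule left out the other 146, of which 134 had fewer than 2 UMIs of 6530403H02Rik and 19 fewer than 5 of Foxp2, with a median of 8182 UMIs. The share of members in this group lay between 50% in replicate 4 and 67.6% in replicate 3.

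The Gm10754 group was led by Gm14133, Gm10754, Gm40663, Gm47515, Stard5 and Npsr1. The first 4 are predicted genes, Stard5 encodes a lipid transfer protein and Npsr1 the receptor of neuropeptide S. It held 89.1% of its cluster of 174 nuclei. Chst9 averaged 20.2 ± 12.4 CPM in this group, near the 17.9 CPM of lateral septum-like nuclei. Otof at 214 ± 65.4 CPM and Tshz1 at 450 ± 45.9 CPM lay close to the Chst9 group, which had 158 ± 16.4 CPM of Otof and 559 ± 44.3 CPM of Tshz1, and the libraries of both groups overlapped.

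Casz1 and Adarb2 of the eccentric spiny list were also high in the Gm10754 group. Among the 3 clusters, the Chst9 group was picked as that with most Chst9. The Gm10754 group was picked as that with more Casz1 of the others. Its Casz1 above the Kctd8 group, and the top rank of Chst9 in the Chst9 group, were thus set in advance. Casz1, a zinc finger transcription factor, averaged 150 ± 35.8 CPM there, 51.2 ± 8.98 CPM in the Chst9 group and 18.3 ± 8.88 CPM in the Kctd8 group. Adarb2, a relative of the RNA-editing adenosine deaminases, averaged 4700 CPM in the Gm10754 group, 2290 CPM in the Chst9 group and 370 CPM in the Kctd8 group. In both genes the libraries of these 3 groups did not overlap.

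The Kctd8 group was led by Kctd8, Prkch, Fstl4, Adam12, Sh3rf2 and Cntnap3. Kctd8 encodes a partner of GABA-B receptors, Prkch a protein kinase C and Adam12 a metalloprotease. These 114 members were 19.3% of a cluster of 592 nuclei, so most of the cluster did not meet the rule. Tshz1 averaged 60.3 ± 10.5 CPM here, Otof 13.1 ± 14.3 CPM and Chst9 6.74 ± 6.42 CPM, so the Tshz1 part of the label does not describe this group. Replicate 5 gave only 4 nuclei to it, and its values in that library rest on few molecules.

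Foxp1 and Drd2, genes of classical medium spiny neurons, were highest in the Kctd8 group. Foxp1, a transcription factor related to Foxp2 and abundant in the striatum, ranged over 1388 to 2246 CPM in the Kctd8 group, over 417 to 492 CPM in the Gm10754 group and over 217 to 256 CPM in the Chst9 group. Drd2 averaged 81.2 ± 55.0 CPM in the Kctd8 group, 18.5 ± 10.4 CPM in the Gm10754 group and 2.89 ± 1.15 CPM in the Chst9 group. Tac1, the precursor of substance P, averaged 43.5 ± 11.2 CPM in the Kctd8 group and 34.7 ± 9.78 CPM in the Gm10754 group, against 1.26 ± 1.30 CPM in the Chst9 group. Drd1 differed less, with means of 48.0, 55.9 and 33.1 CPM in the Kctd8, Gm10754 and Chst9 groups, and its libraries overlapped.

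The opioid receptor gene Oprm1 and Pbx3, a homeobox cofactor, followed the opposite order. Oprm1 averaged 409 ± 35.5 CPM in the Chst9 group, 282 ± 87.8 CPM in the Gm10754 group and 125 ± 55.6 CPM in the Kctd8 group. Pbx3 averaged 2115 CPM in the Chst9 group, 1218 CPM in the Gm10754 group and 452 CPM in the Kctd8 group, with no overlap of libraries between the groups. Npffr2, a receptor of neuropeptide FF, was at 73.1 ± 8.05 CPM in the Chst9 group, with 0 in at least 1 library of both other groups. The 3 named groups together held 1053 members (76.7%).

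**Figure D3:**
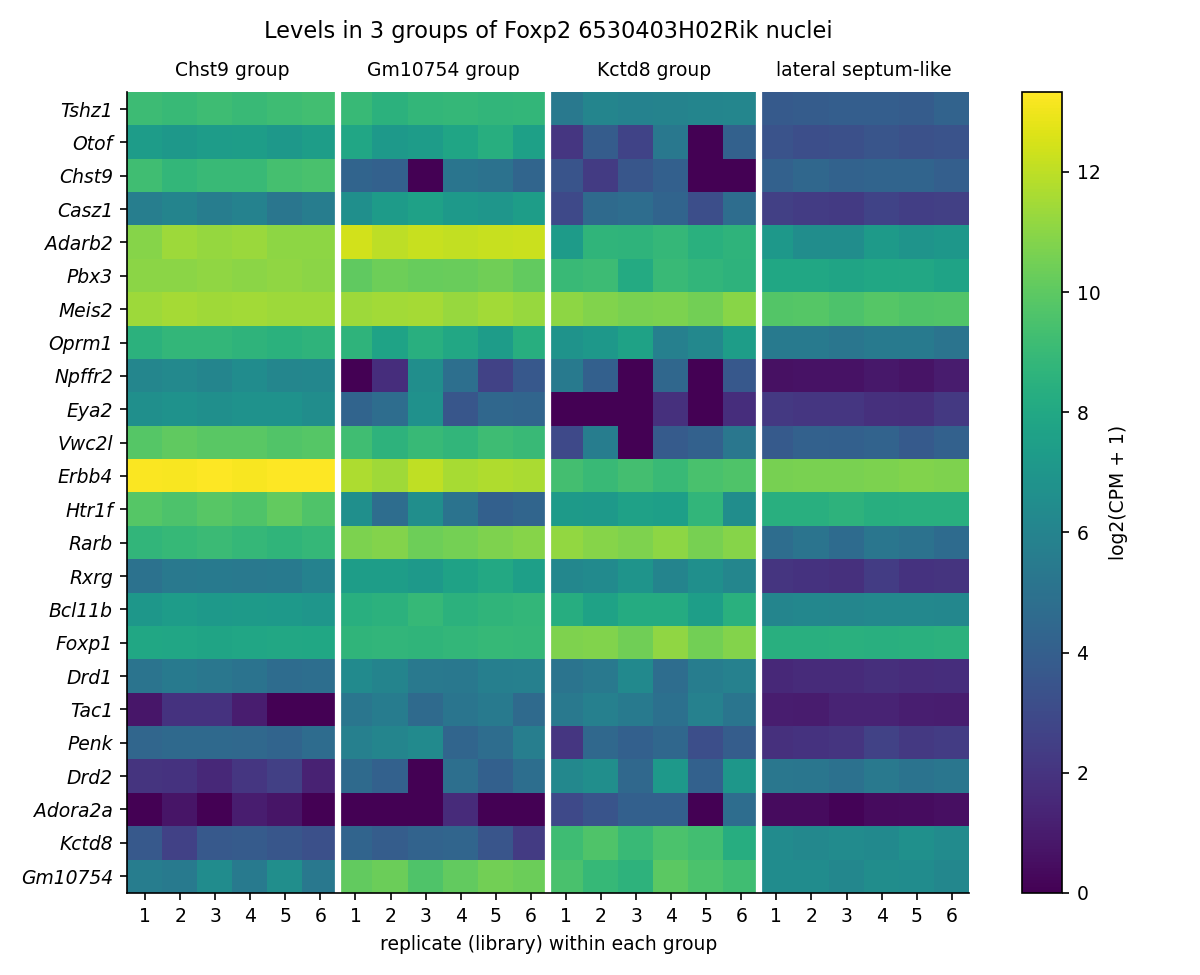
Colours give log2(CPM + 1) of 24 genes in the 6 libraries of the Chst9, Gm10754 and Kctd8 groups of Foxp2 6530403H02Rik nuclei and, at the right, of lateral septum-like nuclei. Tshz1 and Otof are bright in the Chst9 and Gm10754 groups, Chst9 in the Chst9 group, and Foxp1, Drd2 and Kctd8 are brightest in the Kctd8 group.

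The mixed group was led by St18, Prr5l, Zeb2, Bcas1, Aspa and Slc1a3, of which Bcas1 and Aspa belong to oligodendrocytes and Slc1a3 to astrocytes. A doublet caller marked 80.6% of it as pairs of nuclei, a high share that follows from how the group was chosen. Its median nucleus held 19213.5 UMIs. Its share of members lay between 5.15% in replicate 3 and 23.7% in replicate 4, the libraries with the lowest and the highest share of the set. The 5 oligodendrocyte markers summed to a median of 714 CPM over libraries in the mixed group and 68.5 CPM in the Chst9 group. Of all members, 15.7% were predicted doublets, against 10.1% of GABAergic nuclei, and some values without them are given below.

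The members were first compared with lateral septum-like nuclei, the largest of the compared GABAergic classes chosen here. These 7902 nuclei had at least 3 UMIs of Trpc4 and of Dgkg and none of Rgs9 or 6530403H02Rik, with a median of 14327 UMIs. Counts were summed per library and class and tested with edgeR's quasi-likelihood test with the library as a block. A gene was called at a Benjamini-Hochberg adjusted p under 0.05 and a log2 difference of at least 1. Of 15890 genes tested, 1081 (6.8%) were called higher in the members and 715 (4.5%) lower, and the median log2 difference of all genes was 0.01.

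Of 16 tested genes of the medium spiny neuron list, 6 were higher in the members and none lower, with a median log2 difference of 0.78. Nuclei with any UMI of Rgs9, a gene of this list, were kept out of the compared class but not out of the members. The effect of that limit on this count was not tested. The largest difference in the list was in Rarb, the beta receptor of retinoic acid, a nuclear receptor abundant in the striatum. Rarb ranged over 560 to 905 CPM with a median of 691 in the members, against 24.2 to 35.9 CPM with a median of 28.5 in lateral septum-like nuclei. The 6 libraries of the members all lay far above those of the other class. The log2 difference was 4.57 ± 0.17 (SE, edgeR adjusted p = 3.06e-06). Its partner receptor Rxrg averaged 52.8 ± 7.95 CPM in the members and 3.09 ± 0.536 CPM in lateral septum-like nuclei, a log2 difference of 4.07 ± 0.13.

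The region upstream of Rarb is shown because this gene had the largest difference among the medium spiny neuron genes. Receptors of retinoic acid bind direct repeats of a short motif, and such a repeat upstream of Rarb is a textbook example. The 150 bases before the start of Rarb in the RefSeq annotation of GRCm38.p6, chr14:16575477-16575626 on the minus strand, read 5′ to 3′ as follows, with the repeat in capitals.
Rarb: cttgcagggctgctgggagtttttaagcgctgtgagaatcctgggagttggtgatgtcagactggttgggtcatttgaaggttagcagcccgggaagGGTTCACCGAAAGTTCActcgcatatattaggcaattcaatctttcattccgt
The repeat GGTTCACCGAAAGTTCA lies 53 to 37 bases before the start, with the copies GGTTCA and AGTTCA separated by 5 bases. The pattern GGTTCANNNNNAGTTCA was found on either strand in 2 of 32851 promoter windows of 300 bases (0.00609%). This match describes the sequence and is not a measurement of binding, and the sources at hand do not name the genome build of the deposited counts.

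Ppp1r1b, which encodes the dopamine-regulated phosphatase inhibitor DARPP-32, averaged 6.78 ± 2.01 CPM in the members and 0.875 ± 0.119 CPM in lateral septum-like nuclei (log2 difference 2.92 ± 0.21). Scn4b, Gng7, Meis2 and Bcl11b were also called higher, by 3.16, 1.70, 1.29 and 1.22 on the log2 scale. Pde1b was 0.98 ± 0.08 higher and did not pass the size threshold, though it did without predicted doublets (1.07) or without replicates 3 (1.01) or 5 (1.03), while Arpp21 (0.73), Foxp1 (0.54), Adcy5 (0.48), Gnal (0.31), Phactr1 (0.20), Ano3 (-0.11), Rasd2 (-0.11) and Actn2 (-0.31) stayed under it. Rasd2 was at 0.03 without predicted doublets.

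Some genes of both striatal output pathways were called higher than in lateral septum-like nuclei. Of 7 direct pathway genes tested, 4 were higher and none lower. Drd1 ranged over 20.2 to 37.1 CPM with a median of 31.1 in the members, against 1.93 to 2.41 CPM with a median of 2.17 in lateral septum-like nuclei. No library overlapped, and the log2 difference was 3.74 ± 0.14 (edgeR adjusted p = 2.18e-13). Pdyn, the dynorphin precursor, was higher by 3.66 ± 0.32, Tac1 by 3.08 ± 0.21 and Ebf1, a transcription factor, by 1.80 ± 0.37, the last in 5 of 6 libraries. Isl1 at -0.76, Eya1 at 0.98 and Sfxn1 at 0.12 were not called. Eya1 passed the size threshold without replicates 3 (1.04), 4 (1.04) or 6, and Isl1 was called lower with nuclei thinned to 3000 UMIs (-1.03) or limited to UMIs between the 10th and 90th percentile (-1.07).

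Of 6 indirect pathway genes, 3 were higher, none was lower and 3 were not called. Those not called, Drd2 among them, all had negative differences. Adora2a, an adenosine receptor gene, was higher by 2.66 ± 0.37 from a level of 2.02 ± 1.09 CPM in the members and 0.306 ± 0.116 CPM in lateral septum-like nuclei. The Chst9, Gm10754 and Kctd8 groups averaged 0.419 ± 0.486, 0.361 ± 0.883 and 12.4 ± 9.04 CPM of Adora2a. The Chst9 group, the largest, was thus near the level of lateral septum-like nuclei for this gene. After thinning, Penk was seen in 6.05% of the Chst9 group and 1.09% of lateral septum-like nuclei. Penk, the enkephalin precursor, was higher by 2.44 ± 0.21 and Ptprm, a receptor phosphatase, by 1.31 ± 0.05. Drd2 did not pass the threshold, at 22.4 ± 9.32 CPM in the members and 35.7 ± 3.35 CPM in lateral septum-like nuclei (-0.66 ± 0.17). Without predicted doublets, 3 of 6 tested direct pathway genes and 2 of 5 indirect pathway genes were called higher. The median log2 difference of the indirect pathway list was 0.53 over 6 genes, -0.24 over 5 without predicted doublets and -0.26 over 5 with UMIs between the 10th and 90th percentile, where Drd2 was called lower (-1.01).

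Genes known from eccentric spiny neurons and intercalated cells were higher or not called. Leaving aside genes of the label, 3 of 6 eccentric spiny genes were higher and none lower, namely Adarb2 by 3.94 ± 0.20, Casz1 by 3.31 ± 0.16 and Col11a1, a collagen chain, by 1.82 ± 0.10. Casz1 ranged over 33.6 to 60.2 CPM in the members, against 3.87 to 5.35 CPM in lateral septum-like nuclei. Grm8 (0.31), Pcdh8 (0.07) and Cacng5 (-0.58) were not called. Of 6 intercalated amygdala genes, 5 were higher and none lower, with a median log2 difference of 2.46. Besides Drd1, Penk and Meis2 these were Oprm1, the mu opioid receptor, and Pbx3.

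Oprm1 ranged over 202 to 331 CPM with a median of 271 in the members, against 34.0 to 43.9 CPM with a median of 42.0 in lateral septum-like nuclei. The log2 difference was 2.71 ± 0.14 (edgeR adjusted p = 8.44e-06), with higher values in 6 of 6 libraries. Pbx3 averaged 1325 CPM in the members and 234 CPM in lateral septum-like nuclei (2.49 ± 0.09). In the striosome and matrix list of the striatum, 4 of 12 genes were higher and 2 lower. The higher ones were Oprm1, the classical marker of striosomes, Sema5b (2.29), Lypd1 (1.37) and Khdrbs3 (1.16). The lower ones were Epha4 (-1.66), which is known from the matrix, and Zfhx3 (-1.64).

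Lists of neighbouring regions gave mixed or lower counts. Of 10 lateral septum genes outside the rule, 6 were lower and 2, Drd3 and Tacr1, were higher. The compared class was chosen by Trpc4 and Dgkg of this same list, and the effect of that choice on this count was not tested. Met, the receptor of hepatocyte growth factor, was at 5.41 ± 2.64 CPM in the members and 36.6 ± 2.56 CPM in lateral septum-like nuclei, and Crhr2, a receptor of urocortins, was lower by 2.14 on the log2 scale. Of 6 medial septum GABAergic genes, Casz1, Kcnc2 and Hcrtr2 were higher and Nkx2-1 and Lhx8 lower. Casz1 thus belongs to both this list and the eccentric spiny list. Of 8 central extended amygdala genes, 3 were higher and 3 lower. Prkcd, a protein kinase C that marks central amygdala neurons, was at 13.9 ± 6.56 CPM in the members and 88.1 ± 3.94 CPM in lateral septum-like nuclei, while Pdyn and Six3 (1.36 ± 0.12) were higher. Calcrl passed at 1.03 ± 0.16 but not without replicate 2 (0.82) and not without predicted doublets (0.88), when 1 of 7 genes of this list was higher and 3 were lower.

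Glial genes also differed between the classes. In the members 4 of 5 oligodendrocyte genes, 3 of 3 oligodendrocyte precursor genes, 2 of 5 microglial genes, 2 of 3 ependymal genes and 1 of 6 astrocyte genes were called higher than in lateral septum-like nuclei. The 5 oligodendrocyte markers summed to 145 to 404 CPM with a median of 260 in the members, against 114 to 155 CPM with a median of 128 in lateral septum-like nuclei. Without predicted doublets the members' median was 80.9 CPM, whereas the 128 CPM of lateral septum-like nuclei includes theirs. With predicted doublets left out of both classes, 4 oligodendrocyte, 3 precursor, 1 microglial, 1 astrocyte and 0 ependymal genes were still called. The median log2 difference of the oligodendrocyte list was then 1.46, beside 1.31 with them. With UMIs between the 10th and 90th percentile, 1 of 5 oligodendrocyte and 3 of 3 precursor genes were called higher. After thinning these were 1 of 5 and 2 of 2. The part of these glial RNAs in the other differences was not tested. In the Chst9 group alone, which held 0.638% of predicted doublets, Rarb was at 472 CPM, Drd1 at 33.1 CPM, Oprm1 at 409 CPM and Casz1 at 51.2 CPM.

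Across all genes, the 8 largest differences above 20 CPM in the members were in Gm40663, Gm49906, Npffr2, Vwc2l, Rarb, Unc13c, Eya2 and Col6a1. Npffr2 ranged over 34.5 to 48.7 CPM in the members, against 0.53 to 1.01 CPM in lateral septum-like nuclei (log2 difference 5.86 ± 0.14). Vwc2l was higher by 5.13 ± 0.15, Unc13c, a priming factor of synaptic vesicles, by 4.29 ± 0.09, Eya2, a transcriptional coactivator, by 4.17 ± 0.11 and Col6a1, a collagen VI chain, by 4.14 ± 0.11. The predicted genes Gm40663 (8.40 ± 0.27) and Gm49906 (6.41 ± 0.19) led the list, and counts of genes that overlap others cannot be told apart where the use of strand is not given.

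The 8 largest differences in the other direction were Dach2, Met, Ano1, Tafa1, Npffr1, Myo5b, Cpa6 and Grid2ip. Tafa1, a secreted protein of the nervous system, was at 126 ± 88.6 CPM in the members and 796 ± 67.4 CPM in lateral septum-like nuclei (-2.81 ± 0.33). Ano1, a calcium-activated chloride channel, was lower by 2.82 ± 0.24, and Dach2, a transcription factor, averaged 17.8 CPM in the members and 153 CPM in lateral septum-like nuclei. The 2 receptors of neuropeptide FF thus differed in opposite directions, since Npffr1 averaged 5.15 ± 2.37 CPM in the members and 37.3 ± 3.96 CPM in lateral septum-like nuclei (-2.80 ± 0.16). Trpc4 and Dgkg, which chose the compared class, were still at 185 ± 46.2 and 237 ± 56.0 CPM in the members.

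Among transcription factors of the forebrain, 15 of 51 genes were higher and 7 lower. After Rarb, Rxrg and Casz1 these included Meis1 (2.54 ± 0.22), and the lower ones included Zic2 (-2.46 ± 0.18) and Zic1 (-2.03 ± 0.18), zinc finger factors of the septum and midline. Of 22 receptors of dopamine, opioids and monoamines, 7 were higher and 3 lower. Htr1d rose to 4.29 ± 1.35 CPM in the members, against 0.326 ± 0.0857 CPM in lateral septum-like nuclei, while the serotonin receptors Htr7 (-1.86 ± 0.11) and Htr2c (-1.22 ± 0.09) were lower. The muscarinic receptors split, with Chrm1 higher (2.62 ± 0.14) and Chrm3 lower (-2.06 ± 0.20).

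Of 33 genes of cyclic nucleotide signalling, 11 were higher and 2 lower. Rgs8, a regulator of G protein signalling, was higher by 3.75 ± 0.12, and the phosphodiesterases Pde7b and Pde4b by 2.17 ± 0.07 and 1.85 ± 0.06, while Adcy1 (-1.20) and Gnas (-1.18) were lower. Of 32 potassium and HCN channel genes, 7 were higher and 2 lower. Kcnd2, the Kv4.2 pore subunit of A-type currents, averaged 7197 CPM in the members and 1497 CPM in lateral septum-like nuclei (2.25 ± 0.07), and its partner Kcnip4 was higher by 1.63 ± 0.06. Of 28 sodium and calcium channel genes, 6 were higher and 3 lower, with Cacna2d3, an auxiliary calcium channel subunit, at 3.30 ± 0.10 and the ryanodine receptors Ryr1 and Ryr3 at 2.47 and -1.52.

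The counts that follow stand beside 6.8% of all genes called higher and 4.5% called lower. Of 34 synaptic adhesion genes, 1 was higher and 9 lower, among them Nxph1 (-2.02 ± 0.20), a ligand of neurexins, and Il1rapl2 (-1.96 ± 0.23). Leaving aside Chst9, none of 18 carbohydrate sulfotransferase genes tested was higher, which is near the share over all genes for so short a list. In that list 4 were lower, including the heparan sulfate enzymes Hs3st2 (-2.18 ± 0.13) and Ndst4 (-1.59 ± 0.36). Of 38 axon guidance genes, 7 were higher and 6 lower. Sema3e, a secreted semaphorin, was at 64.7 ± 9.41 CPM in the members and 4.85 ± 0.446 CPM in lateral septum-like nuclei, whereas Epha7 (-1.64 ± 0.08) was lower. Of 30 glutamate receptor genes, 3 were higher, with Shisa9 (1.92) and Grm3 (1.47) first, and 5 were lower, with Shisa6 (-2.01) and Grik1 (-1.69) first.

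The next comparison was meant to use classical medium spiny-like nuclei, chosen by at least 2 UMIs of Rgs9 and 5 of Pde10a and none of 6530403H02Rik. The 1385 nuclei so chosen went against that name. They held 475 ± 43.1 CPM of Trpc4 and 618 ± 37.2 CPM of Dgkg, with Ppp1r1b at 3.74 ± 1.37 CPM, and 195 of them lay in the cluster of the Kctd8 group. They are called Rgs9 Pde10a nuclei here, and their median of 18851 UMIs was above that of the members. Of 13563 genes tested, 243 (1.79%) were called higher in the members and 305 (2.25%) lower. Drd1 had a median of 31.1 CPM over libraries in the members and 5.62 CPM in Rgs9 Pde10a nuclei (2.40 ± 0.18), and Otogl, Eya2 and Npffr2 were higher by 3.79, 3.76 and 3.43 on the log2 scale.

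Of 15 medium spiny genes tested against Rgs9 Pde10a nuclei, 3 were higher and none lower, of 6 eccentric spiny genes 3 were higher, and of 5 intercalated genes 4 were higher. Rgs9 and Pde10a, which chose the compared class, are themselves of the medium spiny list. Adora2a (-1.09 ± 0.28) and Drd2 (-1.05 ± 0.16) were lower, as were Isl1 (-1.02 ± 0.14) and 7 of 11 lateral septum genes. With a stricter rule for the compared class the count of higher genes was 159, and Rarb was at -0.17 ± 0.15, beside 1.23 ± 0.14 with the rule as given. The call on Adora2a was lost without replicates 1 (-0.97) or 2 (-0.80), and that on Drd2 without replicates 3 (-0.94) or 5 (-0.97). That on Isl1 was lost without replicates 3 (-0.94), 5 (-0.97) or 6 (-0.96) and with the stricter class (-0.86). Of the higher medium spiny genes, Scn4b lost its call without replicates 1, 3, 4, 5 or 6 in turn, with values of 0.72 to 1.18, and without predicted doublets (1.11, adjusted p = 0.0771). Rarb lost its call with nuclei limited to UMIs between the 10th and 90th percentile (0.79) or thinned (0.85), where 1 medium spiny gene was higher, and Meis2 lost its call with the stricter class (0.78). In these counts no glial gene was called in either direction, while 1 astrocyte gene was called higher without predicted doublets, 1 ependymal gene higher without replicate 4, and oligodendrocyte precursor genes lower within the UMI limits (2) or after thinning (1).

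A further compared class was therefore chosen after the data had been seen. It added at least 5 UMIs of Rarb to the rule of the Rgs9 Pde10a nuclei, and predicted doublets were left out of both classes. These Rgs9 Pde10a Rarb nuclei numbered 297, of which 191 lay in the cluster of 592 nuclei that also held the Kctd8 group, and 1156 members remained. Of 9932 genes tested, 193 (1.94%) were called higher in the members and 166 (1.67%) lower. Since the Kctd8 group shares that cluster, the comparison sets a mixture of members against nuclei like some of them. All 3 comparisons share the members' nuclei, so their calls are not independent of each other.

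Of 13 medium spiny genes tested, none was higher and 2 were lower. The compared class was chosen by Rgs9, Pde10a and Rarb of this same list, which the members did not have to hold. The effect of that choice on the other genes of the list was not tested. Foxp1 ranged over 390 to 619 CPM with a median of 521 in the members, against 903 to 1558 CPM with a median of 1349 in Rgs9 Pde10a Rarb nuclei (-1.33 ± 0.07, edgeR adjusted p = 5.23e-12). The libraries did not overlap. Pde1b was lower by 1.18 ± 0.12, while Gng7 (-0.90), Adcy5 (-0.74), Ppp1r1b (-0.81), Bcl11b (-0.09) and Meis2 (0.40) were not called.

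Drd2 showed one of the largest differences. It ranged over 6.03 to 29.0 CPM with a mean of 19.4 in the members, against 95.2 to 159 CPM with a mean of 121 in Rgs9 Pde10a Rarb nuclei (-2.63 ± 0.17, edgeR adjusted p = 3.43e-08). Of the direct pathway genes Isl1 (-1.42 ± 0.20) and Pdyn (-1.23 ± 0.26) were lower, Pdyn with an adjusted p of 0.0909 when libraries were not used as a block. Drd1 averaged 33.7 ± 8.26 CPM in the members and 19.7 ± 10.1 CPM in Rgs9 Pde10a Rarb nuclei, a difference of 0.78 ± 0.19 that stayed under the size threshold. Penk (-0.81 ± 0.16) and Tac1 (-0.92 ± 0.20) were not called.

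Genes of the eccentric spiny list were higher in the members here too. Of 5 tested, 4 were higher and none lower, with a median log2 difference of 2.09 beside 0.01 for all genes. Casz1 ranged over 37.1 to 70.4 CPM in the members, against 1.38 to 11.9 CPM in Rgs9 Pde10a Rarb nuclei (2.61 ± 0.24, edgeR adjusted p = 3.50e-07). Adarb2 was higher by 2.19 ± 0.15, Grm8, a metabotropic glutamate receptor, by 2.09 ± 0.18 and Cacng5, an auxiliary subunit of AMPA receptors, by 1.93 ± 0.23, while Col11a1 (0.22 ± 0.21) was not called. Of 5 intercalated genes, Pbx3 (1.66 ± 0.10) and Oprm1 (1.46 ± 0.09) were higher and none was lower. Th, a further gene of the eccentric list, was near 0 in the members at 0.337 ± 0.288 CPM and was not tested.

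In the striosome and matrix list 4 of 11 genes were higher and 3 lower. Oprm1, Khdrbs3 (1.83 ± 0.09), Sema5b (1.54 ± 0.13) and Lypd1 (1.35 ± 0.11) were higher, while Sv2b (-1.67 ± 0.12), Epha4 (-1.24 ± 0.18) and Zfhx3 (-1.04 ± 0.25) were lower. The call on Zfhx3 was lost without replicates 1, 2, 3, 5 or 6 in turn, when its values lay between -1.11 and -0.90. Among potassium channels 6 of 31 were higher and 1 lower. Kcnc2, the Kv3.2 channel of fast-firing neurons, averaged 508 ± 74.0 CPM in the members and 154 ± 48.4 CPM in Rgs9 Pde10a Rarb nuclei (1.72 ± 0.16). Of 3 medial septum GABAergic genes tested, Casz1 and Kcnc2 were higher and Hcrtr2 was lower.

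**Figure D4:**
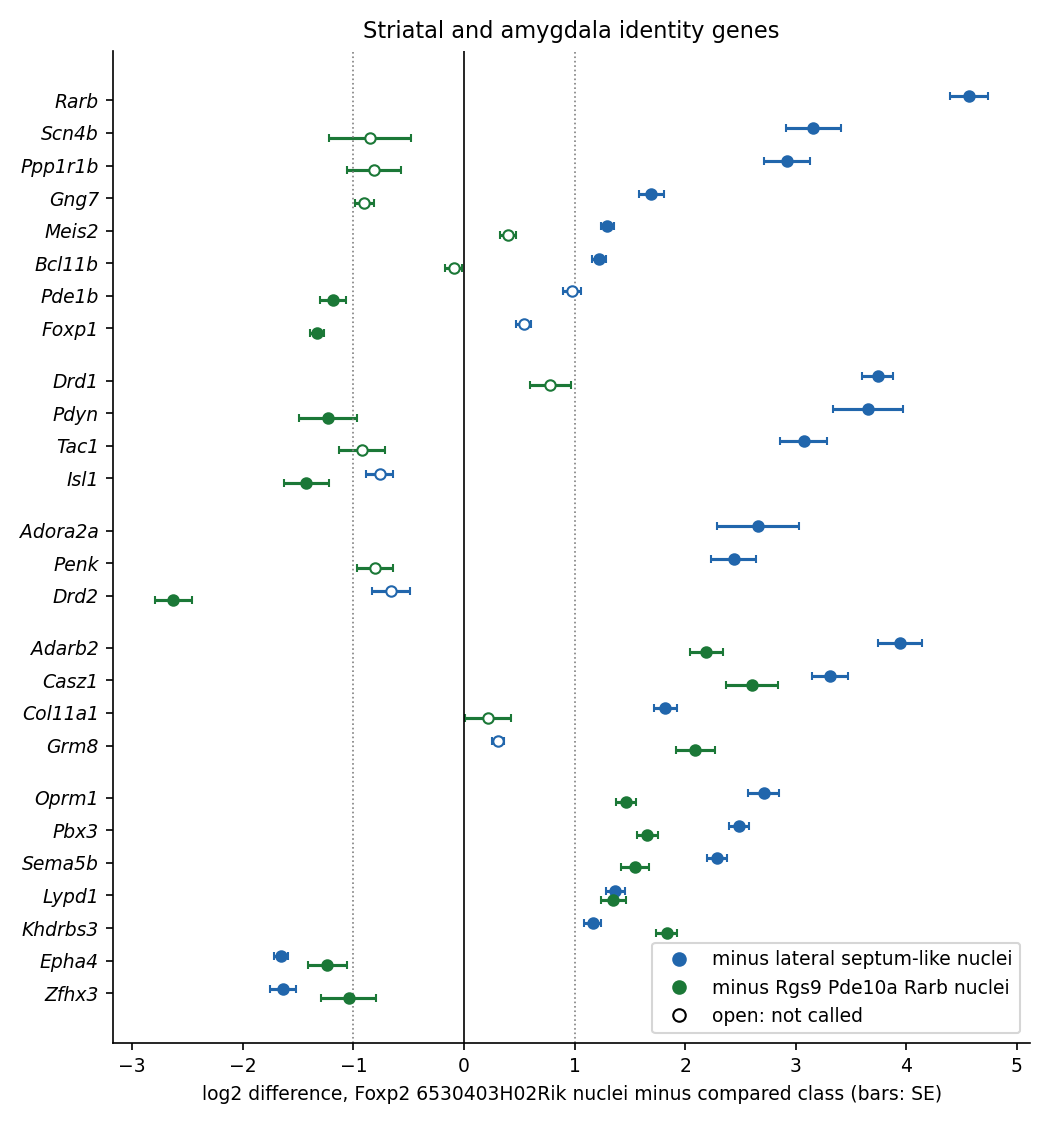
Points give the log2 difference of Foxp2 6530403H02Rik nuclei minus lateral septum-like nuclei (blue) and minus Rgs9 Pde10a Rarb nuclei (green), with bars for the SE and open points for genes not called. From top to bottom the blocks hold selected genes of medium spiny neurons, of the direct and indirect pathways, of eccentric spiny neurons, and of the intercalated and striosome lists. Tested genes not drawn include Arpp21, Adcy5, Gnal, Phactr1, Ano3, Rasd2, Actn2, Pcdh8 and Cacng5, none of them called against lateral septum-like nuclei. Casz1 and Adarb2 are called higher in both comparisons, and Drd2 is called lower against Rgs9 Pde10a Rarb nuclei.

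The largest differences from Rgs9 Pde10a Rarb nuclei lay outside these lists. Otogl, an otogelin-like secreted protein, averaged 38.4 ± 8.75 CPM in the members and 1.77 ± 2.73 CPM in the compared class (4.57 ± 0.39). Eya2 (4.44 ± 0.35), Gm40663 (3.81), Vwc2l (3.64), Gm45680 (3.58), Rai14 (3.43), B020031H02Rik (3.18) and Plscr4 (2.77) followed. In the other direction were Calcr (-2.93 ± 0.70), Upb1 (-2.78 ± 0.31), Drd2, Trhr (-2.58 ± 0.14), Htr2c (-2.52 ± 0.09), Sema3c (-2.40 ± 0.40), Il1rapl2 (-2.29 ± 0.43) and Pde1c (-2.20 ± 0.42). Htr2c, a serotonin receptor, ranged over 127 to 241 CPM in the members, against 875 to 1086 CPM in Rgs9 Pde10a Rarb nuclei. Calcr lost its call without replicates 2, 4 or 5 in turn (edgeR adjusted p 0.0528 to 0.103), Il1rapl2 without replicates 1, 2, 5 or 6 (0.0616 to 0.0729) and Pde1c without replicates 2, 4 or 5 (0.0639 to 0.0825).

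Some abundant genes were higher in the members than in both lateral septum-like and Rgs9 Pde10a nuclei. The 10 with the highest level were Kcnd2, Erbb4, Sox2ot, Meis2, Adarb2, Cacna2d3, Pbx3, Inpp4b, Pex5l and Olfm3. Erbb4 averaged 5778 CPM in the members, against 1661 CPM in lateral septum-like nuclei and 1571 CPM in Rgs9 Pde10a nuclei, with 9761 CPM in the Chst9 group, 3322 CPM in the Gm10754 group and 644 CPM in the Kctd8 group. Pex5l, a partner of HCN channels, averaged 993 CPM in the members, against 357 CPM in lateral septum-like nuclei and 411 CPM in Rgs9 Pde10a nuclei. Olfm3, a secreted olfactomedin, averaged 931, 125 and 264 CPM in the members, lateral septum-like nuclei and Rgs9 Pde10a nuclei, and Inpp4b, a phosphoinositide phosphatase, 1168, 473 and 491 CPM in the same order. Cacna2d3 did not differ beyond the threshold from Rgs9 Pde10a Rarb nuclei (-0.09 ± 0.10), nor did Meis2 (0.40 ± 0.07), while Erbb4 was 2.49 ± 0.07 and Kcnd2 1.22 ± 0.08 higher than in that class.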

How the data were processed

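The authors deposited UMI counts, not normalized, for 32285 genes in each called barcode. Per the submitters' processing notes they were made with STAR and Cell Ranger 3.1.0, whereas the file headers name Cell Ranger 5.0.0. The genome build and the counting of introns, which affects long genes, were not stated in any source at hand. The 6 libraries were taken as replicates 1 to 6 of 1 group. Libraries shared at most 0.433% of barcodes.

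Counts were summed per library and class and tested with edgeR 4.0.16 in R 4.3.3 (TMM factors, filterByExpr, robust quasi-likelihood fit, library as a block), with p-values adjusted over all genes tested. DESeq2 1.42.0 was an alternative. The pairing comes from both sums being of the same library, and their deviations from class means correlated at 0.0818 to 0.36. Genes of the class rules were fitted but left out of counts and lists, and the other label genes are a description. Thinning used 3000 UMIs per nucleus and left out 9 shallower members. The fit was tested on simulated data.

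Doublets were predicted within each library from added pairs of barcodes (30 principal components, 50 neighbours, 0.8% expected per 1000 barcodes), which caught 48.8 to 60.7% of the added pairs. They stayed in, except where stated. GABAergic nuclei were clustered on 2000 variable genes without the genes of the members' rule, Malat1 and mitochondrial, ribosomal and sex-linked genes, with 40 principal components, 20 neighbours and Leiden at resolution 1 (scikit-learn 1.9.0, leidenalg 0.10.2). Oligodendrocytes were barcodes with at least 10 UMIs of Mobp and no Gad1 or Gad2.

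Named genes were, per comparison, the 8 called genes with the largest difference each way (at least 20 CPM in the higher class, the same direction in all 6 libraries). Up to 4 called members of each list each way were added, with some but not all uncalled members of identity lists. The 6 leading genes of each group were named too. So were the 10 most abundant genes higher than in both lateral septum-like and Rgs9 Pde10a nuclei. The members and lists were chosen with earlier results of these data known. A gene of the medium spiny list and one of the oligodendrocyte list are not reported here and were left out of list counts. Alternatives changed the thresholds of the rule, depth, doublets, filter, normalization, tool, block and single libraries.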

Additional observations from a re-analysis of the deposited data

Results flagged for a closer look

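Values of the 6 libraries were examined for a library far from the others in 136 cases, the share of the set and the levels of named genes in the members. In 12 cases the gap of the outermost library exceeded Dixon's critical value at 95%, and chance alone flags about 1 in 20 such groups. Replicate 4 was the library that stood out in 9 of the 12. It held the highest share of members of GABAergic nuclei, 6.85%, with the other libraries at 3.88 to 4.99%.

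In replicate 4, Myo5b, a motor protein, stood at 144 CPM, with the others at 44.0 to 64.3 CPM, and Tafa1 at 293 CPM, with the others at 48.6 to 132 CPM. Ano1 was at 90.5 CPM (others 27.0 to 47.7), Hs3st2 at 80.2 CPM (others 42.3 to 56.4), Grid2ip at 7.08 CPM (others 1.64 to 3.45) and Crhr2 at 6.16 CPM (others 2.82 to 3.78). In the same library Meis2 was low at 1770 CPM, with the others at 2088 to 2221 CPM, and Unc13c was low at 438 CPM, with the others at 566 to 633 CPM. The mixed group, of which 80.6% were predicted doublets, made up 23.7% of members in this library, and its part in these values was not tested.

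In replicate 2, Tac1 was high at 18.0 CPM, with the others at 8.19 to 9.85 CPM, and Gm40663 was high at 51.3 CPM, with the others at no more than 34.8 CPM. Replicate 2 also had the largest share of members in the Gm10754 group, 13.8%, and in the Kctd8 group, 11.9%. In replicate 3, the calcium-dependent phosphodiesterase Pde1c was low at 47.2 CPM, with the others at 111 to 138 CPM.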

How the results depend on the processing

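The share of the set stayed within 1 SD under every setting tried, and its means without single libraries were 2.26 to 2.57% of filtered nuclei and 4.62 to 5.22% of GABAergic nuclei. Genes called against lateral septum-like nuclei numbered 1081 higher and 715 lower, and 1029 to 1143 and 685 to 795 without single libraries. Thinning each nucleus to 3000 UMIs gave 550 and 572, with fewer genes tested, UMIs between the 10th and 90th percentile gave 864 and 932, and leaving out predicted doublets gave 942 and 840. Against Rgs9 Pde10a nuclei the counts were 243 and 305, and 229 to 285 and 271 to 364 without single libraries. They were 379 and 500 with no filter on low counts and 159 and 121 with the stricter compared class, and thinning gave 151 and 218. Against Rgs9 Pde10a Rarb nuclei they were 193 and 166, and 174 to 218 and 149 to 213 without single libraries, with 334 higher and an all-gene median of 0.10 without the filter. Without the replicate block the counts were 1129 and 711, 247 and 276, and 192 and 158 in these 3 comparisons, with Scn4b, Adora2a and Drd2 against Rgs9 Pde10a nuclei and Pdyn and Zfhx3 against Rgs9 Pde10a Rarb nuclei not called. DESeq2 gave 1037 and 743, 243 and 311, and 194 and 178.

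Named genes kept direction and call under every setting in which they could be tested for 92 of 102 against lateral septum-like nuclei, 32 of 43 against Rgs9 Pde10a nuclei and 35 of 42 against Rgs9 Pde10a Rarb nuclei. The first 2 comparisons had 19 settings, some of which, such as thinning, left genes untested, and the last had 10, with none on depth or doublets. Values that changed sign were Rarb (-0.17) and Scn4b (-0.58) with the stricter Rgs9 Pde10a class, and, among genes not called against lateral septum-like nuclei, Rasd2 (0.033) without predicted doublets and Pcdh8 (-0.022 to 0.16 without single libraries, lowest without replicate 5). The cause of these changes was not tested. Scn4b, Adora2a and Nts had mean levels under 6 CPM in the members, so their values rest on few counts.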
